A study of Rattus norvegicus with 9 samples.

Results

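The comparison described here set the loaded fiber conduit (AFMC-AA-SP) against the empty tube (Hollow), both used to bridge a gap of 2 cm in the rat sciatic nerve. Of the 9 libraries of the study, 6 entered it: AFMC-AA-SP replicates 1, 2 and 3 and Hollow replicates 1, 2 and 3. Membership followed the sample titles, and every gene that passed a filter on low counts was tested, which left 15365 of 21486 genes. The AFMC-AA-SP conduit holds aligned fibers with lengthwise microchannels, spermidine adsorbed on the fiber surface and L-ascorbic acid inside the fibers. The Hollow conduit has an open lumen and carries neither agent. RNA came from the tissue that had regrown within the conduit at day 14. The remaining 3 libraries came from AFMC conduits, which have the fibers and microchannels without the agents. Since AFMC-AA-SP differs from Hollow in the fibers, the channels, spermidine and ascorbic acid at once, these cannot be told apart here. Strain, sex and age of the animals are not in the labels, and neither is the number of animals behind a library, so p-values measure only the spread between these libraries, which may be technical.

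When a nerve is cut and its stumps are joined by a tube, fibrin and matrix first span the gap. Macrophages, endothelial cells, fibroblasts and Schwann cells then move in. Schwann cells are the glia of peripheral nerve, and after injury they turn off myelin genes, take on a repair state driven by the transcription factor c-Jun, and guide regrowing axons before they myelinate again. Spermidine is a polyamine that cells also make from ornithine, that is broken down by acetylation and oxidation, and that is known to induce autophagy. Ascorbic acid is the cofactor of the enzymes that hydroxylate collagen, and it promotes basement membrane formation and myelination by cultured Schwann cells.

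The 6 libraries held 18314489 to 22357385 counts each. Values below are in CPM, the counts of a gene relative to the TMM-scaled library size, and a log2 fold change is AFMC-AA-SP over Hollow. A gene was called at an adjusted p under 0.05 in edgeR's quasi-likelihood test. Because a p that misses this threshold does not show that a gene is level, levelness was read from the 95% interval of the log2 fold change. A gene is named level within 1.5-fold where that whole interval lay inside ±0.585, and undecided where the gene was neither called nor level. Along the leading principal component of the log2 values, which held 36.4% of the variance, the loaded libraries scored -21.9, -1.21 and -22.4 and the Hollow libraries -15.0, 33.8 and 26.7. Hollow replicate 1 thus lay among the loaded libraries on that axis. Mitochondrial genes took 3.98% to 4.47% of the counts.

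No gene passed the test. edgeR called 0 genes higher and 0 lower, 0% of those tested in each direction, and the smallest adjusted p was 0.114. At an unadjusted p under 0.05, 464 genes (3.02%) were higher in AFMC-AA-SP and 350 (2.28%) lower, 5.3% together. DESeq2, run on the same counts and genes, called 44 higher (0.286%) and 19 lower (0.124%). In contrast, 10470 genes (68.1%) were level within 1.5-fold and 13157 (85.6%) had the interval inside 2-fold. The other 4895 genes (31.9%) were undecided. Level genes and DESeq2 calls were not separate sets. Afdn, Cat, Nrep and Col6a2 were level within 1.5-fold and were also called by DESeq2 (DESeq2 adjusted p = 0.00452, 0.00671, 0.0112 and 0.0334).

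How much could be called level followed the depth. Below 1 CPM 0% of genes were level, from 1 to 5 CPM 13.1%, from 5 to 10 CPM 61.0%, from 10 to 50 CPM 88.9% and above 50 CPM 93.2%. Of the 11721 genes with a mean of at least 5 CPM, 10134 (86.5%) were level. Their median absolute log2 fold change was 0.08 and the 95th percentile 0.38. A log2 fold change of 1 or more was reached by 57 of them, 45 higher and 12 lower in AFMC-AA-SP. Of those 57, 19 were members of the gene lists described below, and all 19 were higher. The adipocyte and skeletal muscle lists held 4 each, and the neutrophil, chemokine and interferon-stimulated lists 3 each. The lists cover 773 of the 15365 genes tested. They were chosen with earlier results of these data known, so this count is not independent of them.

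**Figure D1:**
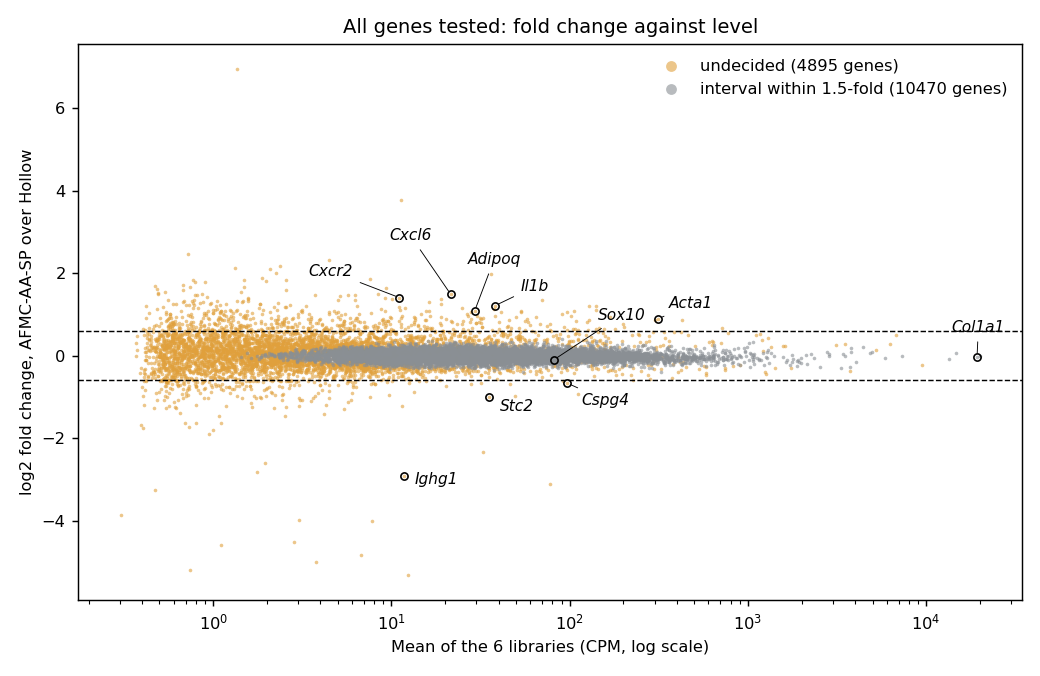
Log2 fold change (AFMC-AA-SP over Hollow) of the 15365 genes tested against their mean over the 6 libraries in CPM on a log axis. Grey points are the 10470 genes with the interval within 1.5-fold, orange points the 4895 undecided genes, and dashed lines mark 1.5-fold. Grey fills the range above about 10 CPM, while below 1 CPM every point is orange.

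Identity genes of the glia were mostly level, where 68.1% of all genes were. Of 20 Schwann cell lineage genes 19 passed the filter; 15 were level within 1.5-fold, all 19 had the interval inside 2-fold, and their median log2 fold change was -0.10, against 0.00 over all genes tested. Sox10, the transcription factor that Schwann cells need to exist, stood at 75.1, 86.8 and 75.2 CPM in AFMC-AA-SP against 85.9, 84.1 and 83.7 CPM in Hollow. Scn7a, a sodium channel of non-myelinating Schwann cells, stood at 109, 104 and 116 CPM in AFMC-AA-SP against 96.2, 111 and 101 CPM in Hollow. The groups overlapped for both genes, with intervals of -0.27 to 0.08 for Sox10 and -0.09 to 0.28 for Scn7a. The members of smallest p, both lower in AFMC-AA-SP, were Col28a1, a collagen of the Schwann cell surface (19.1 ± 1.11 CPM in AFMC-AA-SP against 27.1 ± 5.80 CPM in Hollow, SD, n = 3 each; log2 fold change -0.50 ± 0.16 SE; edgeR adjusted p = 0.893), and Cadm4, an adhesion molecule by which Schwann cells hold axons. Cadm4 was level on its interval of -0.54 to -0.02, at 227 ± 22.6 CPM in AFMC-AA-SP against 276 ± 33.4 CPM in Hollow (SD, n = 3 each). In bulk tissue, fewer cells of a type and less RNA per cell cannot be told apart.

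The transcription factors of the repair state were level too. Jun, which encodes c-Jun, stood at 206, 232 and 216 CPM in AFMC-AA-SP against 207, 177 and 204 CPM in Hollow. Ngfr, the p75 neurotrophin receptor of immature and repair Schwann cells, stood at 239, 270.4 and 206 CPM in AFMC-AA-SP against 230.0, 217 and 244 CPM in Hollow. Sox2, a factor that holds Schwann cells immature, averaged 29.4 ± 3.004 CPM in AFMC-AA-SP against 27.7 ± 2.35 CPM in Hollow, and Runx2, induced in injured Schwann cells, 72.7 ± 5.05 CPM in AFMC-AA-SP against 72.6 ± 3.77 CPM in Hollow (SD, n = 3 each). All 4 groups of values overlapped, and the intervals ran at most from -0.20 to 0.35. Over the list, 9 of 20 repair genes were level, with a median of -0.13.

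Trophic factors of the repair state were undecided. Gdnf, which supports motor neurons, stood at 1.38, 2.18 and 0.777 CPM in AFMC-AA-SP against 2.16, 1.30 and 1.73 CPM in Hollow, with an interval of -1.17 to 0.66. Bdnf, which supports motor and sensory neurons, stood at 4.24, 4.60 and 3.995 CPM in AFMC-AA-SP against 6.04, 5.15 and 4.98 CPM in Hollow. Every loaded library was below every Hollow library for Bdnf, yet its edgeR adjusted p was 0.93. Members lower in AFMC-AA-SP included Igfbp2, an IGF-binding protein, and Tnc, the matrix glycoprotein tenascin C. Igfbp2 averaged 1.51 ± 0.312 CPM in AFMC-AA-SP against 3.62 ± 0.674 CPM in Hollow (log2 fold change -1.25 ± 0.25 SE, edgeR adjusted p = 0.516). Tnc averaged 1077 ± 201 CPM in AFMC-AA-SP against 1425 ± 229.9 CPM in Hollow (-0.40 ± 0.16 SE, edgeR adjusted p = 0.911), both with SD and n = 3 each. Toward higher values, the largest log2 fold change on the repair list was 0.417. At an unadjusted p under 0.05, 1 member of the list was higher and 2 lower, against 3.02% and 2.28% of all genes.

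Myelin genes were neither called nor, for the most part, level. Of 21 members tested 9 were level, 19 were negative, the median was -0.18, and none had groups that did not overlap. Mbp, myelin basic protein, stood at 265, 305 and 293 CPM in AFMC-AA-SP against 335, 474 and 275 CPM in Hollow. Hollow replicate 2 was the highest library, and Hollow replicate 3 lay within the loaded range. Pmp22 and Prx, which belong to compact myelin and to its outer wrap, showed log2 fold changes of -0.33 ± 0.18 and -0.37 ± 0.20 (SE). Cnp, an enzyme of myelinating glia, was level at 252 ± 21.3 CPM in AFMC-AA-SP against 278 ± 8.91 CPM in Hollow (SD, n = 3 each). Without Hollow replicate 2 the list's median was -0.02 and 9 of 21 members were positive, whereas without Hollow replicate 3 it was -0.38 and 11 members were lower at an unadjusted p under 0.05.

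Most transcripts of axons were undecided or too low to test. The table holds 19 axon genes, of which 5 did not pass the filter, and 5 of the 14 tested were level. Map1b, a microtubule protein of growing axons that Schwann cells also express, was level (229 ± 31.7 CPM in AFMC-AA-SP against 250.3 ± 41.3 CPM in Hollow, SD, n = 3 each), and so was Stmn1, a tubulin-binding protein. Gap43, a growth-cone protein, stood at 16.7, 28.3 and 20.8 CPM in AFMC-AA-SP against 33.2, 19.96 and 28.5 CPM in Hollow, overlapping and undecided. Scn9a, a sodium channel of sensory neurons, stood at 1.92, 1.04 and 1.05 CPM in AFMC-AA-SP against 0.361, 0.597 and 0.533 CPM in Hollow, with no overlap (log2 fold change 1.43 ± 0.38 SE; edgeR adjusted p = 0.768).

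**Figure D2:**
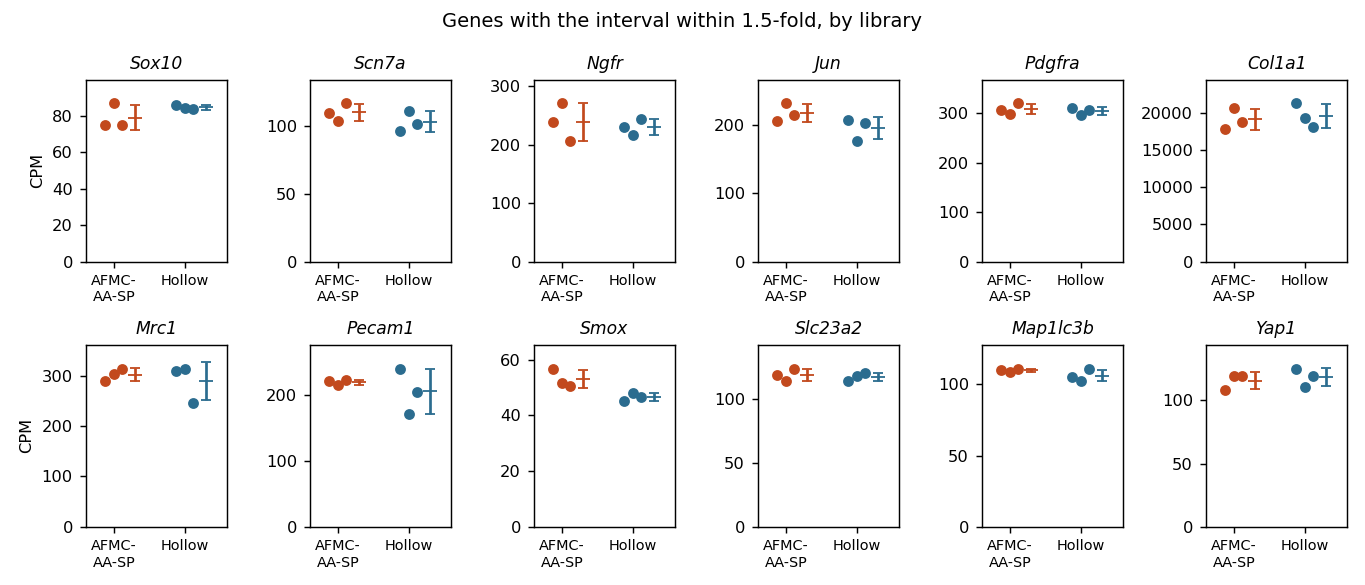
CPM of 12 genes with the interval within 1.5-fold in each library of AFMC-AA-SP (left, red) and Hollow (right, blue); the bar beside each group is the mean ± SD of its 3 libraries, and every axis starts at 0. For Sox10, Scn7a, Ngfr, Jun, Pdgfra, Col1a1, Mrc1, Pecam1, Slc23a2, Map1lc3b and Yap1 the groups overlap, and for Smox they do not.

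Vessel genes were mostly level, and a smaller share of the fibroblast and pericyte lists was. Pdgfra, a receptor of nerve fibroblasts, stood at 306, 299 and 319 CPM in AFMC-AA-SP against 311, 296 and 306 CPM in Hollow, an interval of -0.13 to 0.17. Among endothelial genes 19 of 20 were level, with a median of 0.06 (-0.03 without Hollow replicate 2). Pecam1, an endothelial adhesion protein, stood at 220.0, 215 and 222 CPM in AFMC-AA-SP against 239, 171 and 205 CPM in Hollow, and Tie1, an endothelial receptor kinase, averaged 189 ± 21.7 CPM in AFMC-AA-SP against 186 ± 7.60 CPM in Hollow (SD, n = 3 each). Of 16 pericyte and smooth muscle genes 11 were level, among them Mcam and Pdgfrb. The 20 fibroblast genes had a median of 0.11, with 14 positive and 13 level members. Of all genes 68.1% were level, and of those with a mean of at least 5 CPM 86.5%. Members were not matched to genes of like CPM. The mean score of the fibroblast list was 0.159 ± 0.0654 (SE) higher in AFMC-AA-SP on the log2 scale. The libraries of the groups did not overlap in it. Among those not level were Dpt and Fmod, small matrix proteins of fibroblasts, at 0.43 ± 0.18 and 0.51 ± 0.19 (SE), with edgeR adjusted p = 0.93 and 0.905.

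Col1a1 and Col3a1, fibrillar collagens and targets of the ascorbate-dependent enzymes, were level. Most of the collagen family had lower values in AFMC-AA-SP that did not pass the test. The fibrillar chains were not counted apart from the rest. Col1a1, a chain of type I collagen, stood at 17805, 20661 and 18763 CPM in AFMC-AA-SP against 21227, 19215 and 18086 CPM in Hollow. Col3a1, type III collagen, averaged 19770.4 ± 939.8 CPM in AFMC-AA-SP against 20078 ± 1918 CPM in Hollow (SD, n = 3 each). Their intervals were -0.31 to 0.25 and -0.30 to 0.25. Of 29 collagen genes 19 were level and 24 negative, with a median of -0.22; 8 were lower and 1 higher at an unadjusted p under 0.05, and the same numbers had groups that did not overlap, against 2.28% and 3.02% of all genes at that p, and 4.82% lower and 5.11% higher without overlap. None was called.

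Type VI collagen, which forms beaded filaments around cells and basement membranes, had its 3 main chains among them. Col6a3 stood at 3153, 3323 and 3330.4 CPM in AFMC-AA-SP against 4796, 4176 and 3743 CPM in Hollow (log2 fold change -0.37 ± 0.11 SE; edgeR adjusted p = 0.855). Col6a1 and Col6a2 also lay below Hollow in every loaded library, at -0.29 each, and stayed level within 1.5-fold. Col6a6, a further chain of the type, had the opposite sign, with 84.4, 77.2 and 92.8 CPM in AFMC-AA-SP against 52.6, 33.7 and 46.1 CPM in Hollow (0.94 ± 0.16 SE; adjusted p = 0.281). All loaded libraries exceeded all Hollow libraries for Col6a6. The count of lower collagen genes at that unadjusted p was 5 without AFMC-AA-SP replicate 1 or without Hollow replicate 1; without AFMC-AA-SP replicate 3 it was 4, and without Hollow replicate 3 it was 13.

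Basement membrane genes were mostly level. TGF-beta and fibrosis genes were level about as often as all genes tested, of which 68.1% were. Of 20 laminin and basement membrane genes 16 were level, with a median of -0.07, including the laminin chain Lamb2 and the laminin-binding integrin Itga6, and of 22 TGF-beta and fibrosis genes 15 were level. Tgfbr2, the type II receptor, averaged 646 ± 14.7 CPM in AFMC-AA-SP against 639 ± 33.5 CPM in Hollow, and the ligand Tgfb2 42.7 ± 2.19 CPM in AFMC-AA-SP against 42.2 ± 1.05 CPM in Hollow (SD, n = 3 each). Ltbp2, a microfibril protein of the latent TGF-beta-binding family, stood apart from its list at 64.1, 77.1 and 75.9 CPM in AFMC-AA-SP against 99.98, 119.9 and 114 CPM in Hollow, with no overlap (-0.62 ± 0.10 SE; edgeR adjusted p = 0.26; DESeq2 adjusted p = 6.8e-05). The protease Mmp9 and its inhibitor Timp1 were undecided, at 0.57 ± 0.25 and -0.46 ± 0.21 (SE).

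Of the 26 polyamine and hypusine genes tested 18 were level, where 68.1% of all genes were, with a median of -0.01. Higher members at an unadjusted p under 0.05 numbered 4 and lower members 2, and in 9 the groups did not overlap, against 5.3% and 9.93% of all genes in either direction. With 1 library left out, 2 to 4 were higher and 0 to 2 lower at that p. The member of smallest p was Slc22a3, an organic cation transporter that also carries polyamines, at 3.50, 1.85 and 2.50 CPM in AFMC-AA-SP against 1.31, 1.14 and 1.2 CPM in Hollow, with no overlap (1.098 ± 0.29 SE; edgeR adjusted p = 0.768). Smox, spermine oxidase, stood at 56.8, 51.8 and 50.7 CPM in AFMC-AA-SP against 45.2, 47.9 and 46.5 CPM in Hollow. Sat1, the acetyltransferase that starts polyamine breakdown, stood at 307, 280.1 and 278 CPM in AFMC-AA-SP against 247, 250.4 and 272 CPM in Hollow. For both enzymes all loaded libraries exceeded all Hollow libraries, by log2 fold changes of 0.19 ± 0.07 and 0.17 ± 0.07 (SE), and both were level within 1.5-fold. Odc1, which makes the polyamine precursor putrescine, was level at 72.9 ± 9.53 CPM in AFMC-AA-SP against 80.2 ± 5.03 CPM in Hollow, and so was the lysosomal polyamine exporter Atp13a2 at 107 ± 6.39 CPM in AFMC-AA-SP against 91.0 ± 5.91 CPM in Hollow (SD, n = 3 each). Slc7a1, a carrier for arginine and ornithine, had a log2 fold change of -0.47 ± 0.15 (SE; edgeR adjusted p = 0.893).

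Autophagy genes, the known target of spermidine, were level without exception: 26 of 26 tested members, median 0.05. Map1lc3b, the LC3 protein of autophagosome membranes, stood at 110.0, 109 and 111 CPM in AFMC-AA-SP against 106, 103 and 111 CPM in Hollow, an interval of -0.09 to 0.19. Autophagy is also set by protein modification, which RNA counts do not show.

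For ascorbic acid, Slc23a2, the transporter that brings it into most cells, stood at 118, 114 and 123 CPM in AFMC-AA-SP against 114, 118 and 119.7 CPM in Hollow, an interval of -0.13 to 0.17. Among the collagen hydroxylases that use it, Plod1 was level (234 ± 5.53 CPM in AFMC-AA-SP against 245 ± 10.9 CPM in Hollow, SD, n = 3 each). P4ha1, P4ha2 and Plod2 were undecided, at -0.22 ± 0.17, -0.40 ± 0.14 and -0.46 ± 0.21 (SE). Hollow replicate 2 held the highest value of all 3: 293 CPM for P4ha1, 126 CPM for P4ha2 and 335 CPM for Plod2. Over the 22 members tested, 14 were level, where 68.1% of all genes were, and the median was -0.11. Of the 22 antioxidant and iron genes 19 were level, among them Prdx6, Keap1 and Gclm. Cat, the hydrogen peroxide-degrading enzyme catalase, stood at 98.3, 106 and 106 CPM in AFMC-AA-SP against 72.8, 78.6 and 82.7 CPM in Hollow, with no overlap; it was level at an interval of 0.24 to 0.58, just inside the bound, which it passed under some of the alternatives tried.

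**Figure D3:**
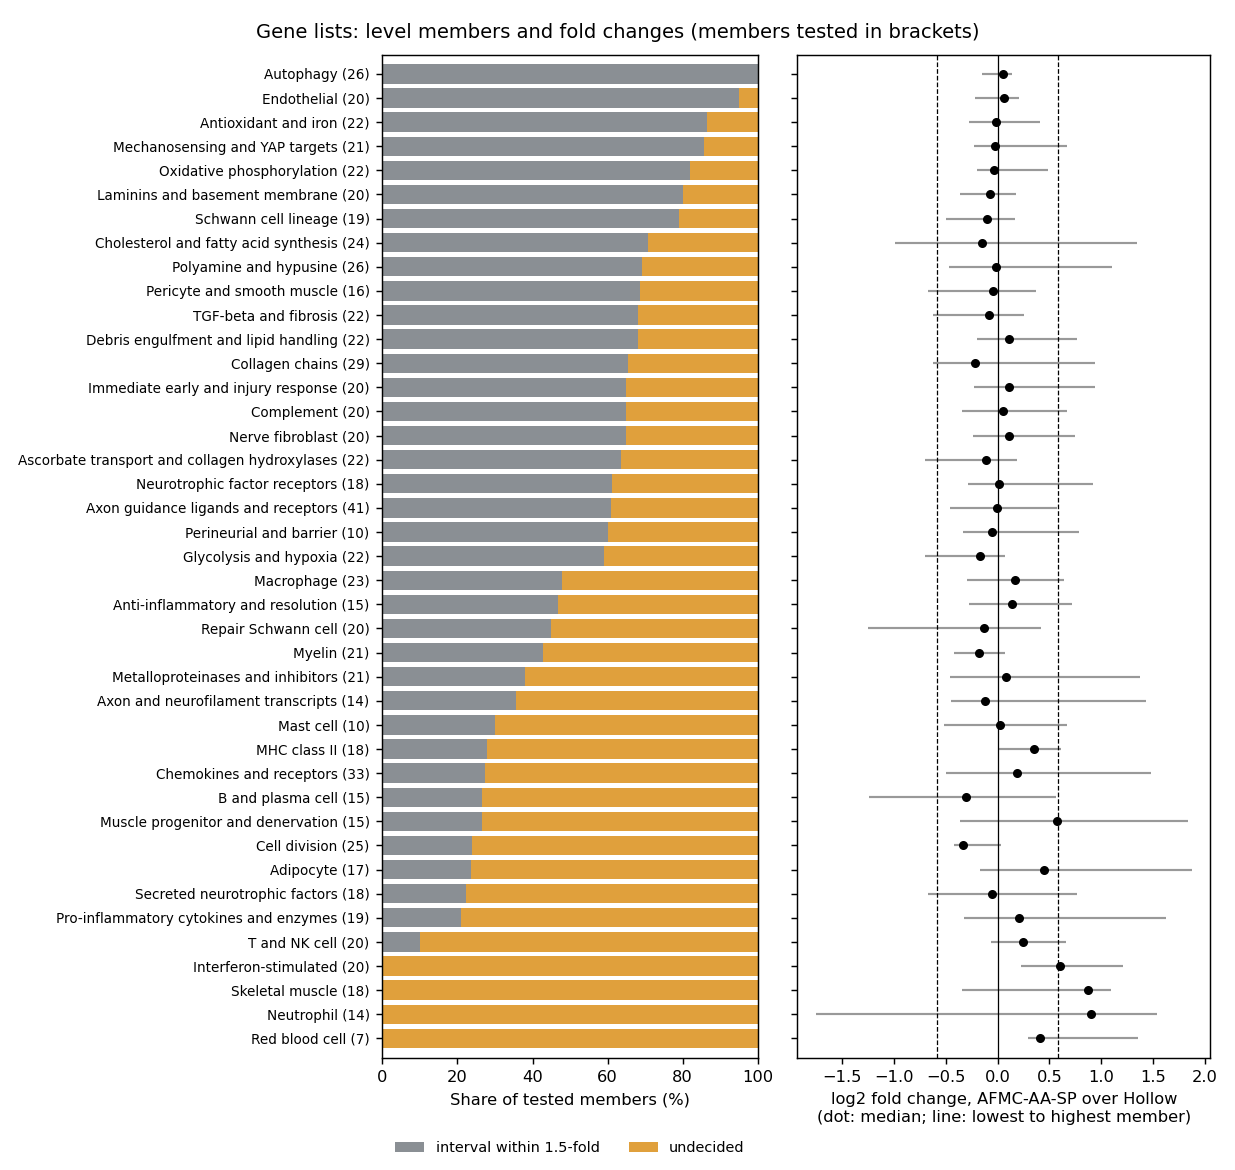
For 41 gene lists, the left panel gives the share of tested members that were level within 1.5-fold (grey) or undecided (orange), and the right panel the median log2 fold change of AFMC-AA-SP over Hollow (dot) with the lowest and highest member (line); dashed lines mark 1.5-fold. The autophagy list is level in 26 of 26 members, and the interferon-stimulated, skeletal muscle, neutrophil and red blood cell lists have 0 level members.

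Neutrophil genes had the largest median among the immune lists. Of 14 neutrophil genes tested 12 were positive, 8 were higher and 1 lower at an unadjusted p under 0.05, 0 were level, and the median was 0.90; over all genes tested 3.02% were higher at that p. The list is small and 3 of its 17 genes did not pass the filter. Il1b, the inflammatory cytokine interleukin 1 beta, stood at 63.3, 40.9 and 56.2 CPM in AFMC-AA-SP against 27.6, 20.7 and 20.9 CPM in Hollow (log2 fold change 1.21 ± 0.18 SE; edgeR adjusted p = 0.235; DESeq2 adjusted p = 1.02e-07). Cxcl6, a chemokine that attracts neutrophils, stood at 41.1, 23.7 and 30.4 CPM in AFMC-AA-SP against 11.6, 8.62 and 13.7 CPM in Hollow (1.48 ± 0.23 SE; edgeR adjusted p = 0.26). The groups did not overlap for either gene, and AFMC-AA-SP replicate 1 was highest in both.

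Receptors and a granule protein of the same cells gave values of the same sign, though not all members did. Log2 fold changes on the list ran from -1.75 to 1.54, and 2 of the 14 were negative. Without overlap between the groups, 8 members lay above Hollow and 1 below. Cxcr2, the chemokine receptor of neutrophils, stood at 22.1, 10.9 and 15.1 CPM in AFMC-AA-SP against 8.47, 4.50 and 5.11 CPM in Hollow. Il1r2, the decoy receptor that binds interleukin 1 without signalling, stood at 14.2, 11.6 and 12.8 CPM in AFMC-AA-SP against 7.39, 6.56 and 6.18 CPM in Hollow. S100a8, a calcium-binding protein stored by neutrophils, stood at 10.8, 5.97 and 10.1 CPM in AFMC-AA-SP against 3.61, 3.09 and 3.91 CPM in Hollow. None of the 3 overlapped between groups; their log2 fold changes were 1.41 ± 0.31, 0.94 ± 0.13 and 1.34 ± 0.24 (SE), with edgeR adjusted p = 0.734, 0.235 and 0.421. Leaving out any 1 library kept the list's median between 0.73 and 1.01. Pf4, a platelet and macrophage chemokine, and Cd24, a surface glycoprotein of granulocytes and other cells, were also higher in every loaded library, at 0.64 ± 0.09 and 1.13 ± 0.15 (SE; edgeR adjusted p = 0.235 each).

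Other inflammatory mediators were mostly positive, though not in every member. Il1a, interleukin 1 alpha, stood at 3.84, 2.84 and 2.44 CPM in AFMC-AA-SP against 1.80, 0.976 and 1.2 CPM in Hollow. Il12b, a subunit of interleukins 12 and 23, stood at 0.936, 0.664 and 0.61 CPM in AFMC-AA-SP against 0.225, 0.163 and 0.311 CPM in Hollow. Neither overlapped, with log2 fold changes of 1.19 ± 0.30 and 1.62 ± 0.39 (SE; edgeR adjusted p = 0.734 for both). Il6, an acute cytokine, stood at 2.61, 5.12 and 3.44 CPM in AFMC-AA-SP against 3.74, 6.67 and 3.60 CPM in Hollow, overlapping and undecided. Ccl2, the chemokine that recruits monocytes, was level at 52.8 ± 9.75 CPM in AFMC-AA-SP against 56.3 ± 15.2 CPM in Hollow (SD, n = 3 each), and Nfkbia, the inhibitor that NF-kB induces, was level at 0.29 ± 0.09 (SE). Over the lists, 4 of 19 pro-inflammatory genes and 8 of 33 chemokine genes were higher at an unadjusted p under 0.05, against 3.02% of all genes, with medians of 0.21 and 0.18. Positive members numbered 15 and 25, against 50.5% of all genes, and 0 were lower at that p. With 1 library left out, 0 to 1 and 0 to 3 were lower. The mean scores were 0.372 ± 0.117 and 0.295 ± 0.12 (SE) higher in AFMC-AA-SP, without overlap between the groups. The pro-inflammatory median was 0.10 without AFMC-AA-SP replicate 1, and its count was 7 without AFMC-AA-SP replicate 2 or Hollow replicate 1 and 8 without Hollow replicate 2. The chemokine median lay between 0.08 and 0.33 when 1 library was left out. The chemokine count was 4 without AFMC-AA-SP replicate 1 and 4 without Hollow replicate 3.

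MHC class II genes, by which macrophages, dendritic cells and B cells present antigen, were positive in 18 of 18 members with a median of 0.35, against 50.5% positive over all genes; 8 were higher at an unadjusted p under 0.05, against 3.02% of all genes, and 5 were level. Cd74, the invariant chain of class II molecules, stood at 1233, 1258 and 1401 CPM in AFMC-AA-SP against 919, 818 and 1039 CPM in Hollow, with no overlap (0.49 ± 0.11 SE; edgeR adjusted p = 0.712). RT1-Da and RT1-Ba, class II alpha chains, were higher by 0.57 ± 0.13 and 0.61 ± 0.15 (SE; edgeR adjusted p = 0.734 each). The RT1 genes have close copies among which reads may be split. The summed level of the list was 3003 to 3429 CPM in AFMC-AA-SP against 2195 to 2789 CPM in Hollow. Its mean score, which weighs members alike, overlapped, at 0.0888 in AFMC-AA-SP replicate 2 against 0.0987 in Hollow replicate 3.

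Macrophage genes were mostly positive, and a smaller share of them was level than of all genes. Mrc1, the mannose receptor of resident-type macrophages, stood at 289, 303 and 314 CPM in AFMC-AA-SP against 309.6, 312 and 245 CPM in Hollow. C1qa, a complement protein made by macrophages, was level at 319 ± 14.8 CPM in AFMC-AA-SP against 354 ± 28.6 CPM in Hollow (SD, n = 3 each). Cd68, Arg1 and Adgre1 (F4/80) were undecided at 0.23 ± 0.15, 0.58 ± 0.22 and 0.64 ± 0.23 (SE), and AFMC-AA-SP replicate 3 was the highest library for all 3. In all, 11 of 23 macrophage genes were level, with a median of 0.17. Apoe, a lipid carrier that macrophages release as they clear myelin, stood at 7991, 6675 and 9061 CPM in AFMC-AA-SP against 5428, 5139 and 6220.0 CPM in Hollow, with no overlap (0.50 ± 0.14 SE; edgeR adjusted p = 0.823). Mertk and Gas6, a receptor and its ligand for the uptake of dead cells, were at 0.43 ± 0.17 and 0.10 ± 0.09 (SE), of which Gas6 was level.

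Lymphocyte genes gave few level calls at their low counts. Of 20 T and NK cell genes 2 were level, one of them Lck, a kinase of T cell receptor signalling, at 17.8 ± 2.87 CPM in AFMC-AA-SP against 17.8 ± 1.42 CPM in Hollow (SD, n = 3 each); Cd2, a T cell adhesion receptor, was at 0.55 ± 0.17 (SE; edgeR adjusted p = 0.882). Among 15 B and plasma cell genes the median was -0.31, while Cd22, a B cell receptor, was at 0.37 ± 0.13 (SE). Ighg1, an immunoglobulin heavy chain gene of plasma cells that is not on the list, stood at 3.05, 2.65 and 2.50 CPM in AFMC-AA-SP against 15.7, 10.2 and 36.6 CPM in Hollow, with no overlap (-2.93 ± 0.47 SE; edgeR adjusted p = 0.26). Its reads may be shared with related immunoglobulin genes. AABR07065812.2, a short gene on chromosome 6 like Ighg1, was higher in every loaded library (3.77 ± 0.47 SE, edgeR adjusted p = 0.235, DESeq2 adjusted p = 6.71e-07). Loaded libraries held 13.6, 32.2 and 17.5 CPM of it, and Hollow libraries 2.43, 1.465 and 0.711 CPM. Whether AABR07065812.2 encodes an immunoglobulin was not examined, and immunoglobulin RNA as a whole was not tested.

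Interferon-stimulated genes followed 1 library. All 20 were positive, the median was 0.60, 0 were level and 1 was higher at an unadjusted p under 0.05. Irf7, a transcription factor of the interferon response, stood at 366, 156 and 67.4 CPM in AFMC-AA-SP against 66.6, 49.5 and 139 CPM in Hollow, and Oasl, an antiviral sensor, reached 68.4 CPM in AFMC-AA-SP replicate 1. The groups overlapped for both. The summed list was 2668, 1226 and 856 CPM in AFMC-AA-SP against 971, 734 and 1378 CPM in Hollow. Without AFMC-AA-SP replicate 1 the median was -0.01 and 9 of 20 members were positive. Without any other library it lay between 0.36, without Hollow replicate 2, and 0.94, without Hollow replicate 3, and 8 members were higher at that p without AFMC-AA-SP replicate 3.

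Adipocyte genes formed another list whose scores did not overlap between the groups. The neutrophil, pro-inflammatory, chemokine, fibroblast and cell division scores did not overlap either. Of 17 tested 16 were positive, where 50.5% of all genes were, 9 were higher at an unadjusted p under 0.05, where 3.02% of all genes were, and 4 were level, with a median of 0.45. Adipoq, the fat cell hormone adiponectin, stood at 30.8, 39.4 and 49.4 CPM in AFMC-AA-SP against 20.3, 15.8 and 20.2 CPM in Hollow (1.08 ± 0.18 SE; edgeR adjusted p = 0.281; DESeq2 adjusted p = 5.84e-06). Plin1, which coats lipid droplets of fat cells, stood at 16.3, 20.3 and 27.0 CPM in AFMC-AA-SP against 11, 7.92 and 11.2 CPM in Hollow (1.08 ± 0.21 SE; edgeR adjusted p = 0.476). No loaded library overlapped a Hollow library in either gene. Dgat2, an enzyme of triglyceride synthesis, was at 0.54 ± 0.12 (SE; edgeR adjusted p = 0.734), whereas Lpin1 and Pnpla2, lipid enzymes found in many tissues, were level at 0.01 and 0.04. The list's median stayed between 0.37 and 0.53 when any 1 library was left out. Its summed level overlapped, at 1927 to 2767 CPM in AFMC-AA-SP against 1804 to 2627 CPM in Hollow. Ca3, a carbonic anhydrase abundant in fat and slow muscle, stood at 142, 165 and 227 CPM in AFMC-AA-SP against 79.7, 66.1 and 86.8 CPM in Hollow (1.196 ± 0.18 SE; edgeR adjusted p = 0.235). Scd, a desaturase of fat and liver, had 36.2, 84.4 and 179 CPM in AFMC-AA-SP against 41.2, 46.6 and 30.1 CPM in Hollow, overlapping.

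Muscle and blood varied between libraries of 1 group more than between groups. Acta1, skeletal muscle actin, stood at 400.4, 186 and 637 CPM in AFMC-AA-SP against 591, 41.1 and 28.5 CPM in Hollow, and Tnnt3, a troponin of fast muscle, followed it. Hollow replicate 1 lay with the loaded libraries, and Hollow replicates 2 and 3 were low. Of 18 muscle genes 17 were positive with a median of 0.87, 0 were level and 0 reached an unadjusted p under 0.05; the summed list was 993.5 to 3096 CPM in AFMC-AA-SP against 198.3 to 2979 CPM in Hollow. Without Hollow replicate 1 the median was 3.28 and 16 of 18 members were higher at that p; without any other library it lay between 0.36 and 1.19. The part of muscle RNA in any other difference was not tested. Hba-a2, a hemoglobin chain with close copies, stood at 1219, 2469 and 466 CPM in AFMC-AA-SP against 1253, 716 and 930.5 CPM in Hollow, and Alas2, the heme enzyme of red cells, spread alike.

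**Figure D4:**
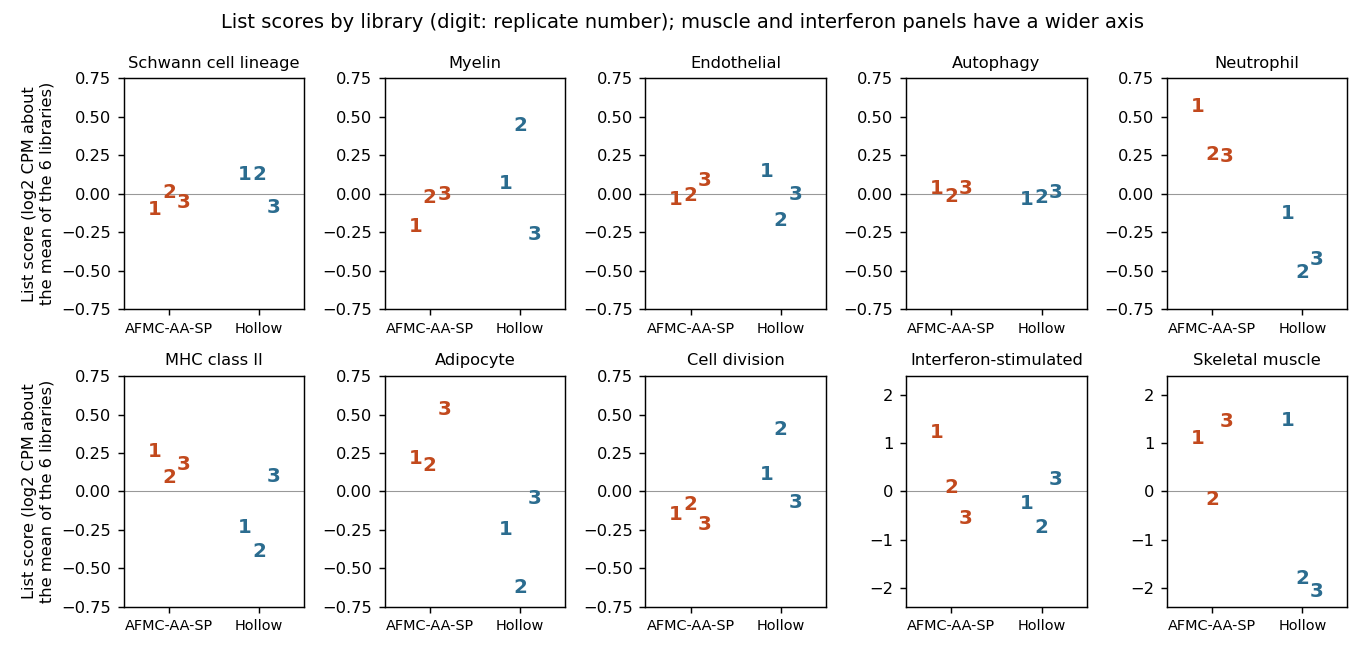
Scores of 10 gene lists by library, as the mean log2 CPM of the members relative to the mean of the 6 libraries; digits are replicate numbers, AFMC-AA-SP at left in red and Hollow at right in blue, and the interferon and muscle panels have a wider axis. Neutrophil, adipocyte and cell division scores do not overlap between the groups, whereas muscle scores place Hollow replicate 1 beside the loaded libraries and interferon scores set AFMC-AA-SP replicate 1 above all others.

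Cell division genes were lower in AFMC-AA-SP by small amounts, and none was called. Of 25 tested 24 were negative, 14 were lower at an unadjusted p under 0.05 against 2.28% of all genes, the median was -0.33, 6 were level, and all 25 had the interval inside 2-fold. Mki67, a marker of cycling cells, stood at 89.9, 93.0 and 86.9 CPM in AFMC-AA-SP against 113, 154 and 93.9 CPM in Hollow (-0.42 ± 0.16 SE; edgeR adjusted p = 0.911). Tpx2, a spindle protein, stood at 23.5, 27.8 and 26.3 CPM in AFMC-AA-SP against 34.5, 37.5 and 29.4 CPM in Hollow (-0.39 ± 0.11 SE; edgeR adjusted p = 0.852), and Cdk1, the mitotic kinase, averaged 17.2 ± 0.160 CPM in AFMC-AA-SP against 22.3 ± 4.13 CPM in Hollow (SD, n = 3 each). The loaded libraries lay within a narrow range, while Hollow replicate 2 was highest and Hollow replicate 3 close to the loaded group. Pcna, the DNA polymerase clamp, was level. The count of lower members was 3 without Hollow replicate 2, 3 without AFMC-AA-SP replicate 3, 5 without AFMC-AA-SP replicate 1 and 21 without Hollow replicate 3.

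Oxidative phosphorylation and mechanosensing genes were level for the most part, where 68.1% of all genes were. Of 22 oxidative phosphorylation genes 18 were level, among them Uqcrc2 of complex III, and of 21 mechanosensing and YAP target genes 18 were level, among them Yap1 and its kinase Lats2. Glycolysis and hypoxia genes had 13 of 22 level and a median of -0.17, which was 0.01 with 13 of 22 members positive without Hollow replicate 2; Hk1, which starts glycolysis, was level and Ndrg1, induced by low oxygen, was at -0.47 ± 0.19 (SE). Among lipid synthesis genes 17 of 24 were level, including the cholesterol enzyme Lss. Immediate early and injury genes had 13 of 20 level; Klf6 was level, and Zfp36, which speeds decay of cytokine messengers, had 144 ± 10.95 CPM in AFMC-AA-SP against 102 ± 17.2 CPM in Hollow (SD, n = 3 each; 0.50 ± 0.12 SE; edgeR adjusted p = 0.734).

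Guidance and trophic cues for axons were level less often than genes in general, of which 68.1% were. Of 41 guidance genes 25 were level and the median was 0.00. Of 18 secreted neurotrophic factor genes 4 were level. At an unadjusted p under 0.05, 3 of these factors were higher and 0 lower, against 3.02% and 2.28% of all genes. Without overlap, 3 lay above Hollow and 2 below, against 5.11% and 4.82% of all genes. With 1 library left out, 1 to 4 were higher and 0 to 1 lower at that p. Slit3, a secreted guidance cue, stood at 156, 179 and 161 CPM in AFMC-AA-SP against 229, 259 and 194 CPM in Hollow (-0.46 ± 0.11 SE; edgeR adjusted p = 0.734), and Plxnc1, a semaphorin receptor, at 70.8, 53.5 and 64.4 CPM in AFMC-AA-SP against 41.5, 36.1 and 48.9 CPM in Hollow (0.58 ± 0.14 SE; adjusted p = 0.734). The groups overlapped in neither. Nrp2, a semaphorin co-receptor, was level. Ntrk2, the receptor of Bdnf, had 22.1, 18.8 and 24.6 CPM in AFMC-AA-SP against 16.2, 15.1 and 15.1 CPM in Hollow (0.50 ± 0.11 SE; edgeR adjusted p = 0.734). Igf1, a growth factor for Schwann cells and axons, had 312, 351 and 309.6 CPM in AFMC-AA-SP against 275, 184 and 247 CPM in Hollow (0.46 ± 0.14 SE; adjusted p = 0.893). Neither overlapped. Fgfr1 and the growth factor Ptn were level.

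Further genes of small p belonged to no group above or stood alone in theirs. Cspg4 (NG2), a proteoglycan of pericytes and glial precursors and a member of the pericyte list, lies on chromosome 8 at 57264962 to 57300010 in the deposited table, whose genome build is not given in the sources used here. It stood at 68.7, 79.7 and 76.4 CPM in AFMC-AA-SP against 110.8, 124.5 and 122.7 CPM in Hollow (-0.67 ± 0.08 SE; edgeR adjusted p = 0.235; DESeq2 adjusted p = 1.02e-07). The gap between the groups was wider than the whole spread within either. Stc2, a secreted glycoprotein linked to cell stress, stood at 22.2, 27.3 and 21.0 CPM in AFMC-AA-SP against 53.8, 53.9 and 33.6 CPM in Hollow (-1.002 ± 0.19 SE; edgeR adjusted p = 0.476). Lxn, a carboxypeptidase inhibitor, averaged 35.5 ± 3.78 CPM in AFMC-AA-SP against 57.1 ± 4.21 CPM in Hollow, and Hnrnpa3, an RNA-binding protein with many pseudogenes, 306 ± 15.4 CPM in AFMC-AA-SP against 448 ± 27.3 CPM in Hollow (SD, n = 3 each; edgeR adjusted p = 0.235 for both). Col9a2, a cartilage-type collagen, and Dio3, which inactivates thyroid hormone, were lower by -1.29 ± 0.23 and -0.95 ± 0.18 (SE). Afdn, a junction scaffold, and Nrep, a protein of regenerating neurons and of fibroblasts, had no overlap between groups and were nonetheless level within 1.5-fold, at -0.40 ± 0.06 and -0.39 ± 0.08 (SE), Nrep not under most of the alternatives tried. Toward higher values Cpz, a secreted carboxypeptidase, had 58.3, 62.6 and 56.8 CPM in AFMC-AA-SP against 37.4, 26.1 and 33.5 CPM in Hollow (0.87 ± 0.13 SE; edgeR adjusted p = 0.235), and C4b, a complement component with a near copy in the genome, at 0.67 ± 0.12 (SE).

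**Figure D5:**
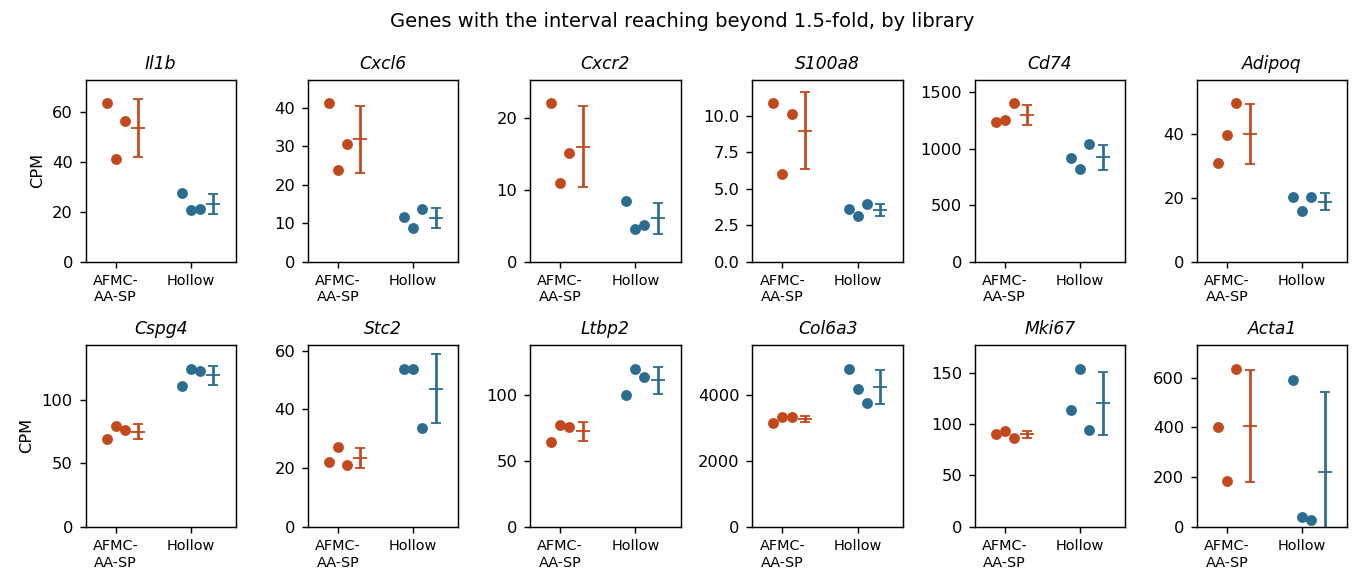
CPM of 12 genes with the interval reaching beyond 1.5-fold in each library of AFMC-AA-SP (left, red) and Hollow (right, blue); the bar beside each group is the mean ± SD of its 3 libraries, and every axis starts at 0, so the lower end of the Hollow bar for Acta1 is cut off. Il1b, Cxcl6, Cxcr2, S100a8, Cd74 and Adipoq are higher in every loaded library, Cspg4, Stc2, Ltbp2, Col6a3 and Mki67 lower in every one, and Acta1 overlaps. None was called by edgeR.

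Beside these, the unloaded AFMC conduit gives a scale for the level calls. AFMC against Hollow was fitted in the same way on its own 6 libraries, and it shares the 3 Hollow libraries, so the 2 comparisons are not independent and are only set side by side. There edgeR called 0 genes as well, 2359 of 15372 genes (15.3%) had an unadjusted p under 0.05, and 8046 (52.3%) were level within 1.5-fold. AFMC replicate 3 stood apart, with Il1b at 557 CPM against 46.0 and 73.5 CPM in AFMC replicates 1 and 2. Without it the level share was 52.0%, in a fit with 1 library fewer, so this share is not like for like with the full fits. Leaving out 1 AFMC-AA-SP library also lowered the level genes of AFMC-AA-SP against Hollow, to between 9476 of 15537 and 9872 of 15616. The Schwann cell lineage list had a median of -0.10 in AFMC-AA-SP against Hollow and -0.55 in AFMC against Hollow (-0.40 without AFMC replicate 3), with 15 of 19 members level in AFMC-AA-SP against Hollow and 4 of 19 in AFMC against Hollow. In the same order of comparisons, AFMC-AA-SP before AFMC, Scn7a had log2 fold changes of 0.09 and -0.93, Sox2 0.08 and -0.69, and Map1b -0.13 and -0.95. The neutrophil list had medians of 0.90 and 2.52 (1.04 without AFMC replicate 3), and Il1b 1.21 and 3.32 (1.39 without it). The adipocyte list had medians of 0.45 and -0.45 (-0.18 without it), with Adipoq at 1.08 and -1.40. The difference between the 2 comparisons was not tested here.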

How the data were processed

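RNA sequencing libraries from conduit tissue were made by poly(A) capture and a dUTP strand-specific protocol and read over 150 bp from both ends, per the labels' protocols. The deposited table holds whole-number counts per gene, not normalized, and deposited FPKM values of the same genes, used only in an alternative. The sources used here do not give the aligner, counting program, annotation release or genome build. Groups were read from the sample titles. Low genes were removed with filterByExpr on the 6 libraries, in edgeR 4.0.16 under R 4.3.3. The rest were scaled by TMM and tested with a quasi-likelihood model with a group term, two-sided, with Benjamini-Hochberg adjustment over all 15365 genes. The standard error is the absolute log2 fold change divided by the square root of F, and intervals are per gene, at 95%, not adjusted for the number of genes. The genes and 41 lists were chosen with earlier results of these data known. Named genes are, per direction, the 12 of smallest p among genes with a symbol, groups that do not overlap and a higher-group mean of 5 CPM or more, the 3 members of smallest p and up to 2 narrowest level members of each list, and fixed genes; those of general interest are printed. The lists hold 860 genes, 773 tested, 39 too low, 48 not analysed here. Where genes shared a symbol, the one with most counts was used. An exact permutation test of 3 against 3 libraries cannot give a p below 0.1, so none is printed. Steps were tested on simulated data. Alternatives tried were RLE or upper-quartile factors, no filter or 1 CPM in 3 libraries, all 9 libraries, DESeq2 1.42.0, limma-trend (limma 3.58.1) on log2(FPKM + 1) or log2(FPKM + 0.1), a gene length offset, a block for replicate number, block and offset together, other thresholds, and each library left out. Counts are reads without molecular identifiers, so depth covers counting error only. Results for some genes are not reported here.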

Additional observations from a re-analysis of the deposited data

How the results depend on the processing

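The absence of calls held under RLE and upper-quartile factors, a filter at 1 CPM, all 9 libraries, the gene length offset, a log2 fold change of at least 1, and without each AFMC-AA-SP library. DESeq2 called 44 genes higher and 19 lower; the cause was not tested. With no filter, and with limma-trend on log2(FPKM + 1) or log2(FPKM + 0.1), 1 gene was called higher, ENSRNOG00000070878. Leaving out 1 library gave 0 to 1 genes higher and 0 to 1 lower: 1 lower without Hollow replicate 1, 1 higher without Hollow replicate 2 (ENSRNOG00000027006) and 1 higher without Hollow replicate 3 (Klra1); these 2 were named after their values were seen. The sample titles number the replicates without saying whether the numbers pair them. In their deviations from the group mean, same-numbered libraries correlated at 0.001, 0.161 and -0.098, and 1 of the 3 correlated best with its own number. With 3 libraries a group, these values cannot decide whether a batch was shared by number. The replicate block gave 1 lower gene, also with the gene length offset. The count of level genes lay between 9476 and 10620 at 1.5-fold under the edgeR alternatives, and was 13157 at 2-fold; it was not counted for DESeq2 or limma-trend.

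Of 60 level genes followed through the 17 alternatives, 48 stayed level in each; the others, such as Nrep, Cat, Col4a1 and Ncam1, passed the bound in some. The median changed sign in at least 1 alternative in 15 of 41 lists, most of them near 0; the larger were interferon-stimulated and glycolysis genes, given above, and red blood cell genes (0.41, and -0.27 without AFMC-AA-SP replicate 2). Signs turned in 4 genes as single libraries were left out. Gdnf then ranged from -0.679 to 0.0306 (without AFMC-AA-SP replicate 3), Il6 from -0.623 to 0.0191 and P4ha1 from -0.337 to 0.0165 (both without Hollow replicate 2), and Hba-a2 from -0.199 (without AFMC-AA-SP replicate 2) to 0.928. Genes under 5 CPM are limited by depth.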

Other observations

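In 5 of the genes tested, 1 group was near 0, and none of them was called by edgeR; they were chosen after their values were seen, as those with at most 3 counts in every library of 1 group and at least 10 in every library of the other. Ryr2, a calcium release channel known from heart muscle, had 1, 1 and 0 counts in AFMC-AA-SP libraries and 12, 13 and 11 in Hollow libraries. An unnamed gene, ENSRNOG00000070878, on chromosome 5 at 110908577 to 110913310, had 38, 67 and 55 counts in AFMC-AA-SP libraries and 0, 1 and 0 in Hollow libraries, with 24, 20 and 46 in AFMC libraries. It had the smallest edgeR adjusted p of all genes, 0.114, and was called by DESeq2 (adjusted p = 7.53e-06). The other 3 genes were low in AFMC-AA-SP, 1 of them, AABR07065781.1, annotated as an immunoglobulin heavy chain-like gene. DESeq2 called that gene (adjusted p = 0.00559) and ENSRNOG00000064589 (adjusted p = 0.000332). In AFMC replicates 1, 2 and 3, AABR07065781.1 had 5, 16 and 428 counts, ENSRNOG00000064589 1, 31 and 394, and ENSRNOG00000068221 1, 0 and 119.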
